A study of Cicer arietinum with 4 samples.

Results

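Genes for 14-3-3 proteins were examined by RNA sequencing in ovules, the structures that become seeds, of the chickpea (Cicer arietinum) cultivar ICC4958. They were chosen by name: the deposited table of FPKM values holds 2 genes under the identifiers 14-3-3 and 1433, of 28783 genes in all. Post-fertilization ovules came from half-opened flowers and were set against pre-fertilization ovules from closed buds, with 2 libraries in each group. The libraries are called post A, post B, pre A and pre B, and the letters carry no order. Flower stage and fertilization differ together between the groups and cannot be told apart. No source used here says whether the 2 libraries of a group came from separate plants, so the p-values measure the spread between these libraries, which may be technical.

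14-3-3 proteins are small adaptor proteins found throughout eukaryotes. They work as dimers and bind partner proteins at phosphorylated serine or threonine, which changes the activity, stability or place in the cell of the partner. In plants their known partners include the plasma membrane proton pump, nitrate reductase, calcium-dependent protein kinases and enzymes of ethylene synthesis. They also join the florigen protein FT to the bZIP transcription factor FD in the complex that turns on flowering genes. The family has several members in plants, and members not named by a symbol in the table were not analysed here.

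Gene 14-3-3 (NCBI gene number 101501220) lies on chromosome 1 from 12667866 to 12671176, a span of 3311 bp. Gene 1433 (NCBI gene number 101506053) lies on chromosome 2 from 20829049 to 20831477, a span of 2429 bp. Both coordinates are those of the deposited table, whose genome build no source used here gives, and both genes are protein-coding in RefSeq. No other gene of the table overlapped either of them. Gene 14-3-3 stands between genes of low or no signal: LOC101500892, 1373 bp before it in coordinates, was listed at 0 in all 4 libraries. LOC101501728, 1673 bp after it, had 2.96 FPKM in post A and 4.14 FPKM in post B, and 4.68 FPKM in pre A and 5.43 FPKM in pre B. The nearest genes to 1433 lie farther off, with LOC101505499 at a distance of 88326 bp and LOC101506367 at 51831 bp. LOC101506367 had 102 FPKM in post A and 87.0 FPKM in post B, and 88.1 FPKM in pre A and 93.3 FPKM in pre B. The members were thus the most abundant transcripts among their nearest neighbours on both sides.

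Both genes were among the abundant transcripts of the ovule, and their levels lay closer together after fertilization than before. Gene 14-3-3 was 1.41-fold higher after fertilization and passed the test, while gene 1433, the more abundant of the pair, did not pass. Values are FPKM, fragments scaled to transcript length and to a measure of library size, so they can be compared between genes. As these are bulk samples, fewer cells of a type and less RNA per cell cannot be told apart.

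Gene 14-3-3 had 337 FPKM in post A and 361 FPKM in post B, against 255 FPKM in pre A and 241 FPKM in pre B. Both post-fertilization libraries stood above both pre-fertilization libraries, with a gap of 81.9 FPKM between the nearest of them. The libraries within a group lay much closer together, 23.6 FPKM apart after fertilization and 14.4 FPKM apart before. The means were 349 ± 16.7 FPKM after fertilization and 248 ± 10.2 FPKM before (SD, n = 2 each). On the log2(FPKM + 1) scale the fold change was 0.49 (SE 0.12, 95% confidence interval 0.17 to 0.81; limma adjusted p = 0.0380). The interval corresponds to a rise of between 1.12-fold and 1.75-fold.

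Gene 1433 had 532 FPKM in post A and 597 FPKM in post B, against 603 FPKM in pre A and 661 FPKM in pre B. The groups did not overlap, but the gap between post B and pre A was 6.15 FPKM, far less than the 65.3 FPKM between the post-fertilization libraries or the 57.6 FPKM between the pre-fertilization libraries. The means were 565 ± 46.2 FPKM after fertilization and 632 ± 40.7 FPKM before (SD, n = 2 each), a ratio of 0.893. The log2 fold change was -0.16 (SE 0.16, 95% confidence interval -0.58 to 0.25; limma adjusted p = 0.449). The interval spans 0.668-fold to 1.19-fold of the level before fertilization.

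**Figure D1:**
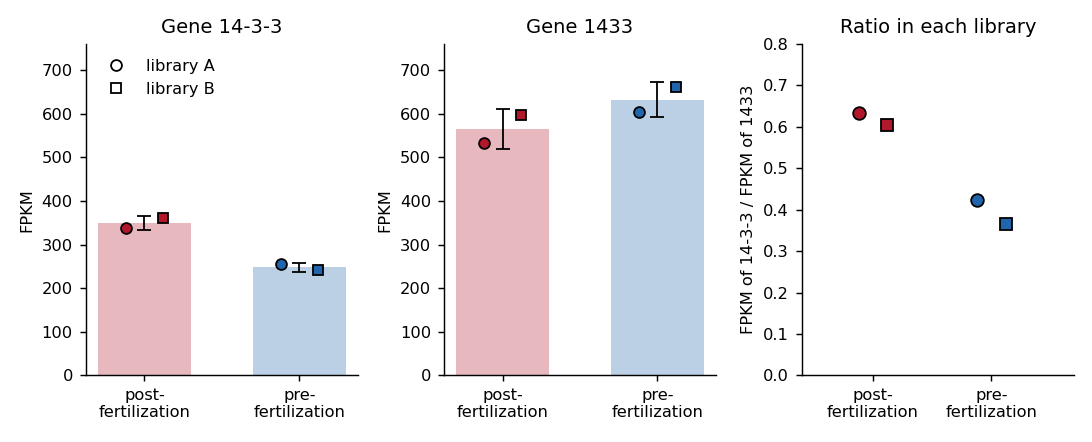
FPKM of genes 14-3-3 and 1433 in post-fertilization and pre-fertilization ovules (left and middle panels; bars are means, error bars SD over 2 libraries, points the libraries) and the ratio of the 2 genes in each library (right panel). Gene 14-3-3 was at 337 and 361 FPKM after fertilization and at 255 and 241 FPKM before, and the ratio was higher in both post-fertilization libraries.

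Of the 2 genes, 1 was called, where 36.5% of the 17849 tested genes were called in either direction and 21.0% were called higher. The number of called genes over the whole table, 6522, was 776 without pre A and 653 without pre B. Groups that do not overlap were common as well, at 75.7% of tested genes. Gene 14-3-3 was a call of moderate size in this setting: 54.8% of tested genes had a smaller absolute log2 fold change. For gene 1433 that share was 21.5%. Over the tested genes the log2 fold change had a median of 0.02, and its absolute value a median of 0.43.

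**Figure D2:**
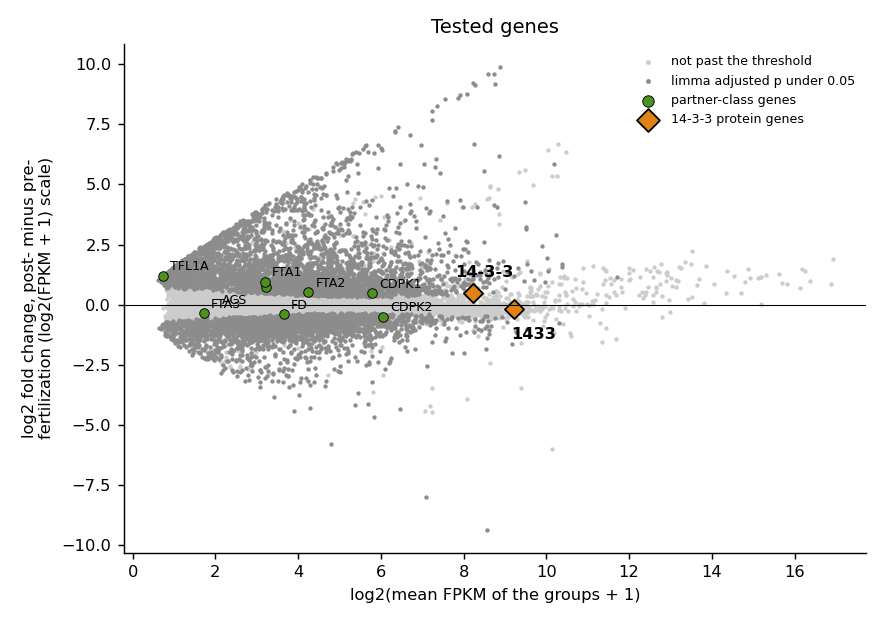
Log2 fold change (post- minus pre-fertilization) against log2(mean FPKM of the groups + 1) for the 17849 tested genes, with the 14-3-3 protein genes as diamonds and genes of known partner classes as green circles. Both members lie toward the abundant end, gene 14-3-3 at 0.49 and gene 1433 at -0.16, well inside the spread of genes of lower level.

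The call of gene 14-3-3 depended on the scaling between libraries. With quantile normalization its log2 fold change was 0.26 (limma adjusted p = 0.176), and with libraries set to equal sums over genes spanning at least 300 bp it was 0.33 (limma adjusted p = 0.0941). These scalings moved the median over tested genes to -0.15 and to -0.13. They also turned the split of calls over the whole table, 3754 higher and 2768 lower as deposited, to 2976 higher and 3968 lower under the first and 3121 higher and 4115 lower under the second. Relative to that median, gene 14-3-3 was higher by 0.41 and 0.45, and by 0.47 with the deposited scaling. Gene 1433 had log2 fold changes of -0.34 and -0.32 under the same 2 scalings and did not pass (limma adjusted p = 0.131 and 0.164). The call of gene 14-3-3 was also lost when either pre-fertilization library was left out, where the spread comes from the post-fertilization pair alone. Its log2 fold change was then 0.53 without pre A (limma adjusted p = 0.213) and 0.45 leaving out pre B (limma adjusted p = 0.266).

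**Figure D3:**
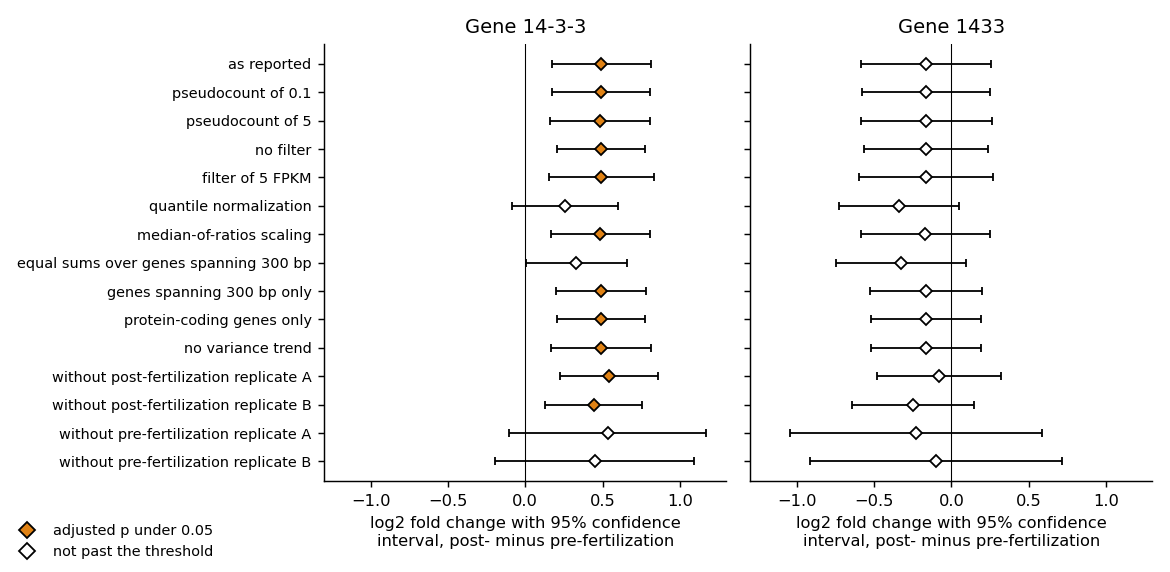
Log2 fold change (post- minus pre-fertilization) of genes 14-3-3 and 1433 with 95% confidence intervals, as reported and under 14 other settings; filled diamonds passed an adjusted p of 0.05. Gene 14-3-3 lay between 0.26 and 0.54 and gene 1433 between -0.34 and -0.08. As the groups of neither gene overlap, only the other scalings could have changed a sign.

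The ratio of the genes within a library does not change with scaling by a single factor. Gene 14-3-3 had 0.634 times the FPKM of gene 1433 in post A and 0.604 times its FPKM in post B, against 0.423 times in pre A and 0.365 times in pre B. It was below gene 1433 in all 4 libraries, and closer to it in both post-fertilization libraries. The mean ratio was 0.619 ± 0.021 after fertilization and 0.394 ± 0.0415 before (SD, n = 2 each). On the log2 scale the difference between the groups was 0.66, and it ranged from 0.55 to 0.76 when 1 library was left out. An exact two-sided permutation test gave p = 0.333, the smallest that 2 libraries against 2 can give. The ratio alone does not say which of the genes differed.

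Summed over both genes the level was 869 FPKM in post A and 958 FPKM in post B, against 859 FPKM in pre A and 902 FPKM in pre B, so that the groups overlapped. Gene 14-3-3 supplied 38.8% and 37.7% of the sum after fertilization, against 29.7% and 26.7% before. As a share of the summed FPKM of genes spanning at least 300 bp, the pair held 0.142% in post A and 0.154% in post B, against 0.156% in pre A and 0.163% in pre B. On this scale both post-fertilization libraries lay below both pre-fertilization libraries, so the overlap held with the deposited FPKM and not with these shares.

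Ranks place both genes near the top of every library. Among all 28783 genes, with rank 1 the highest, gene 1433 ranked 286 in post A and 303 in post B, and 235 in pre A and 238 in pre B. Gene 14-3-3 ranked 462 in post A and 471 in post B, and 518 in pre A and 551 in pre B. In percent, 0.990% and 1.05% of genes lay above gene 1433 after fertilization, and 0.813% and 0.823% before. For gene 14-3-3 the shares were 1.6% and 1.63% after fertilization, and 1.80% and 1.91% before. In both post-fertilization libraries gene 14-3-3 thus stood higher in the order, and gene 1433 lower, than in either pre-fertilization library.

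Many genes above them were short. Of the genes above 1433, those spanning under 300 bp numbered 158 in post A, 206 in post B, 148 in pre A and 154 in pre B, and FPKM of very short genes is sensitive to how length is corrected. Among the 22940 genes that RefSeq lists as protein-coding, gene 14-3-3 ranked 263 in post A and 221 in post B, against 305 in pre A and 321 in pre B. Both post-fertilization ranks were still higher than both pre-fertilization ranks. Gene 1433 ranked 117 in post A and 80 in post B, against 82 in pre A and 72 in pre B. Here the groups overlapped, with post B above pre A, so the separate ranks of gene 1433 among all genes did not hold among protein-coding genes.

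**Figure D4:**
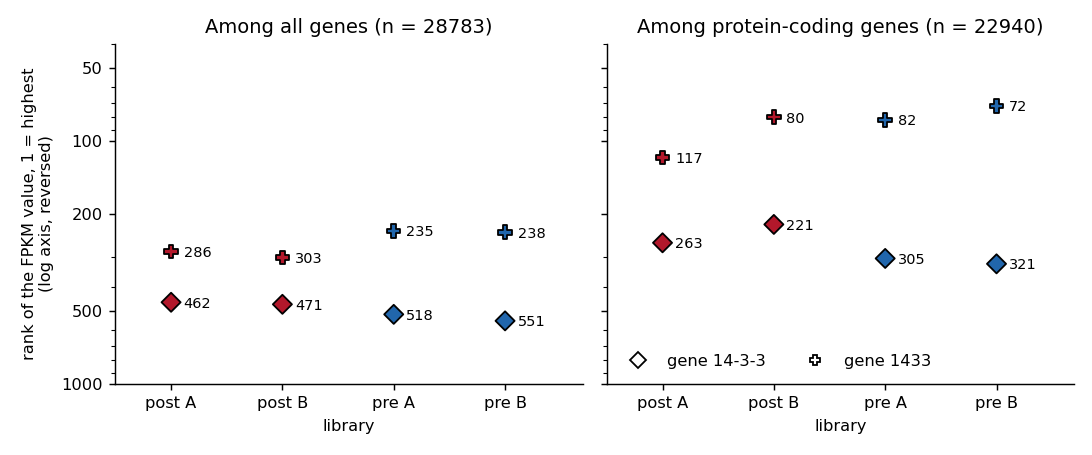
Rank of the FPKM value of genes 14-3-3 and 1433 in each library (1 is the highest; reversed log axis) among all 28783 genes (left) and among 22940 protein-coding genes (right), post-fertilization libraries in red and pre-fertilization libraries in blue. Gene 14-3-3 ranked higher in both post-fertilization libraries in both panels, while the ranks of gene 1433 overlapped among protein-coding genes.

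Among the 192 tested genes with a symbol, tRNA genes left out, gene 1433 came 10th by mean FPKM over the 4 libraries and gene 14-3-3 came 16th. Next above gene 1433 was CAM, a calmodulin, with 704 FPKM in post A and 636 FPKM in post B and 606 FPKM in pre A and 604 FPKM in pre B. Next above gene 14-3-3 was PAD1, with 312 FPKM in post A and 301 FPKM in post B and 304 FPKM in pre A and 330 FPKM in pre B. Gene 14-3-3 was above PAD1 in both post-fertilization libraries and below it in both pre-fertilization libraries, so the order of these neighbours turned between the groups.

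Likeness of pattern was measured as the root mean square difference of log2(FPKM + 1), with each gene centred on its own mean over the 4 libraries. The nearest genes with a symbol to gene 14-3-3 were UGT87H3, a UDP-glycosyltransferase, at 0.034, then MAPK12, a mitogen-activated protein kinase, at 0.066, and LTP2, a lipid transfer protein, at 0.068. LTP2 had 175 FPKM in post A and 169 FPKM in post B, against 127 FPKM in pre A and 128 FPKM in pre B. MAPK12 had 27.8 FPKM in post A and 30.7 FPKM in post B, against 20.6 FPKM in pre A and 21.9 FPKM in pre B. UGT87H3 had far lower levels, 1.79 FPKM in post A and 2.19 FPKM in post B, against 1.18 FPKM in pre A and 1.07 FPKM in pre B. At such levels the pseudocount of 1 damps differences, and UGT87H3 was not called (limma adjusted p = 0.0951). A gene with equal values in all 4 libraries would lie 0.249 from gene 14-3-3 and 0.111 from gene 1433. Near to gene 1433 were NAC31, a NAC transcription factor, at 0.068, and PRR37B, of the pseudo-response regulator family of the circadian clock, at 0.073. These distances rest on 4 libraries, and other tested genes lay nearer, 50 of them nearer to gene 14-3-3 than UGT87H3 and 341 nearer to gene 1433 than NAC31.

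Genes of classes known to bind 14-3-3 proteins were found by symbol, and whether these chickpea proteins do so was not measured. The search covered 12 classes and found 10 genes in 4 of them: FT and TFL1 relatives, FD, calcium-dependent protein kinases and an enzyme of ethylene synthesis. Of the 8 that could be tested, 3 rose, 0 fell and 5 did not pass limma's test, where 21.0% of all tested genes were called higher. With quantile normalization, where 7 could be tested, 1 rose and 2 fell, and with equal sums over genes spanning at least 300 bp 2 rose and 1 fell. With the deposited scaling the 8 had a median log2 fold change of 0.51, against 0.02 over all tested genes. This median does not show a rise of the classes as a set. CDPK2, FD and FTA3 had negative log2 fold changes, and the higher values included TFL1A and ACS. The log2 fold change of ACS reversed without post B. The median without TFL1A and ACS, or under the other scalings, was not tested. TFL1A, 1 of the 3 that rose, met the filter on low values only through its post-fertilization libraries, which brought it into the test.

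Of the kinases, CDPK1 rose. It had 66.1 FPKM in post A and 60.0 FPKM in post B, against 45.6 FPKM in pre A and 43.6 FPKM in pre B (log2 fold change 0.49, SE 0.10, limma adjusted p = 0.0258). Both post-fertilization libraries were higher, where 75.7% of tested genes had groups without overlap. The rise of CDPK1 was close in size to that of gene 14-3-3 and to the median absolute log2 fold change over tested genes, 0.43. Its call was lost without pre A (limma adjusted p = 0.156) and when pre B was left out (limma adjusted p = 0.183). It was also lost with quantile normalization (log2 fold change 0.30, limma adjusted p = 0.110) and with equal sums (log2 fold change 0.33, limma adjusted p = 0.0700). CDPK2, the second kinase, had 40.7 FPKM in post A and 70.1 FPKM in post B, against 78.5 FPKM in pre A and 73.9 FPKM in pre B, with no call (limma adjusted p = 0.207). Post A alone was far below the other libraries. Without post B the log2 fold change of CDPK2 was -0.89 and it passed (limma adjusted p = 0.00443), and without post A it was -0.12 (limma adjusted p = 0.409).

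Of the florigen complex, FD had 9.60 FPKM in post A and 10.2 FPKM in post B, against 13.6 FPKM in pre A and 12.9 FPKM in pre B. The post-fertilization libraries were lower without overlap, where 75.7% of tested genes had groups without overlap. The log2 fold change of FD was -0.38 (SE 0.12) and did not pass (limma adjusted p = 0.0603). FD passed as lower with quantile normalization (log2 fold change -0.49, limma adjusted p = 0.0327) and with equal sums (log2 fold change -0.53, limma adjusted p = 0.0259). Among FT genes, FTA1 had 10.2 FPKM in post A and 12 FPKM in post B, against 4.94 FPKM in pre A and 5.44 FPKM in pre B. It rose 2.14-fold and its 2 groups stood well apart (limma adjusted p = 0.0124), although the call was lost without pre A (limma adjusted p = 0.105) and when pre B was left out (limma adjusted p = 0.0917).

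FTA2, its neighbour on chromosome 3, had 21.8 FPKM in post A and 20.9 FPKM in post B, against 16.6 FPKM in pre A and 12.6 FPKM in pre B (limma adjusted p = 0.0628). No source used here says how reads that fit both copies were counted. FTA3 had 1.77 FPKM in post A and 2.0 FPKM in post B, against 2.63 FPKM in pre A and 2.78 FPKM in pre B (limma adjusted p = 0.144), and passed as lower with quantile normalization (log2 fold change -0.59, limma adjusted p = 0.0470). FT-B was listed at 0 in all 4 libraries. The FT genes thus gave values in both directions, with 1 of the 3 tested past the threshold. Over all tested genes 36.5% were called in either direction. FTA2 passed as higher when only protein-coding genes were fitted (log2 fold change 0.53, limma adjusted p = 0.0487).

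TFL1A, of the TFL1 branch that acts against FT, was listed at 1.5 FPKM in post A and 1.12 FPKM in post B and at 0 in pre A and pre B (limma adjusted p = 0.0157). That call too was lost when pre A was left out (limma adjusted p = 0.116) or pre B (limma adjusted p = 0.118), and TFL1A fell below the filter without post A, without post B, with quantile normalization and with a filter of 5 FPKM. TFL1C, its relative, stayed below the filter, at 1.11 FPKM in post A and 0.707 FPKM in post B and 0.561 FPKM in pre A and 0.406 FPKM in pre B. ACS, which makes the precursor of ethylene, had 1.94 FPKM in post A and 22.9 FPKM in post B, against 4.76 FPKM in pre A and 3.51 FPKM in pre B. Its libraries disagreed after fertilization, post B being far above and post A below the earlier pair. ACS did not pass (limma adjusted p = 0.605), and its log2 fold change was 2.23 without post A (limma adjusted p = 0.00196) and -0.79 without post B (limma adjusted p = 0.0554). The florigen and FD transcripts were of far lower level than either 14-3-3 protein gene in each library.

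**Figure D5:**
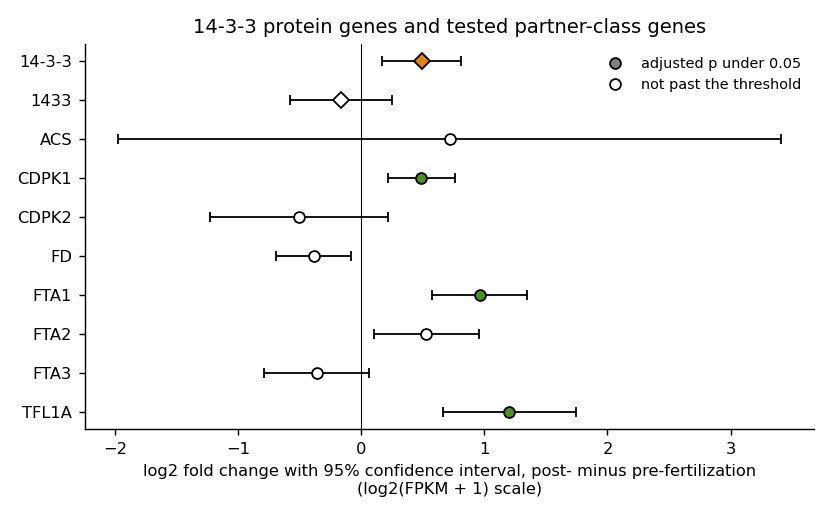
Log2 fold change (post- minus pre-fertilization) with 95% confidence interval for genes 14-3-3 and 1433 (diamonds) and the 8 tested genes of known partner classes (circles); filled symbols passed an adjusted p of 0.05. Gene 14-3-3, CDPK1 and FTA1 passed as higher, as did TFL1A, which met the filter on low values only through its post-fertilization libraries. The interval of ACS spans from -1.97 to 3.41.

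The tissue label could not be checked by markers, because 0 of 44 marker symbols for ovule and carpel, embryo and endosperm, pollen, petal and stamen, or green tissue were found in the table by name. What part such tissues had in the values was not tested. Sequencing depth is known only relative to pre A, estimated by what 1 fragment was worth on genes of low level: it was 1.02 in post A, 1.11 in post B and 0.553 in pre B. Both members lie far from the low values where the shallower pre B is coarse. Genes spanning at least 300 bp held 27.9% of summed FPKM in post A and 17.4% in post B, against 37.1% in pre A and 30.6% in pre B.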

How the data were processed

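The authors deposited 1 table of FPKM values per gene and library, in which 4 columns name the group but not which sample of it. Per the submitters' processing notes, the tools were HISAT2, Cufflinks, Cuffdiff, fastp and FastQC, with no version or role. No source used here gives the genome build or says whether libraries were scaled to each other. Median-of-ratios factors of the deposited values were 1.0044 in post A, 1.0034 in post B, 1.0028 in pre A and 0.99978 in pre B. The libraries were thus already level on that measure, so median-of-ratios scaling was close to no change. RefSeq, matched on gene number for 25491 genes, gave biotypes. It is of another assembly, so its coordinates were not used; a chromosome number is that of most genes on the same sequence.

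Genes reaching 1 FPKM in at least 2 libraries were fitted as log2(FPKM + 1) by group alone in limma 3.58.1 under R 4.3.3 (variance trend, two-sided), with p-values adjusted after Benjamini and Hochberg over all tested genes and a threshold of 0.05. Fold changes are post- minus pre-fertilization, and folds are ratios of mean FPKM. The folds given for confidence intervals are instead the limits of the log2(FPKM + 1) fit, turned back from log2. The fit was tested on simulated data. Absolute depth is unknown. Figures used matplotlib 3.10.9.

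The members and lists were chosen with earlier results of these data known. Named were the members, called genes of each list (up to 4 in each direction) and the 3 symbol genes nearest in pattern to each member, of which 1 is not reported here. Neighbours in position and level, and partner-class genes that were not called, were named after their values were seen. A planned list of genes with similar proteins was not used, as no protein sequences were at hand. Alternatives were other pseudocounts, filters, scalings, gene subsets, no variance trend, and leaving out each library. The protein-coding subset and the left-out libraries for the ratio were added after seeing the data.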

Additional observations from a re-analysis of the deposited data

How the results depend on the processing

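Gene 14-3-3 kept its call in 10 of 14 alternatives. Because its groups do not overlap, only the other scalings could have turned its direction, and they did not. The call was lost with quantile normalization (log2 fold change 0.26) and with equal sums over genes spanning at least 300 bp (0.33), and without pre A or pre B. With 1 library left out its log2 fold change ranged from 0.44 to 0.54. Gene 1433 stayed short of the threshold in 14 alternatives (-0.34 to -0.08). Its direction, too, could have turned only with the other scalings and did not. The number of called genes was 6522 and ranged from 653 to 7404 with 1 library left out, the lowest without pre B and 776 without pre A. Called partner-class genes, 3 with all libraries, ranged from 0, without pre A and without pre B, to 3 with 1 library left out, and numbered 4 with protein-coding genes only. The log2 fold change of ACS was 2.23 without post A and reversed to -0.79 without post B, where the post-fertilization group is post A alone; with 1 library left, a group is assumed to vary like the other. No paired analysis was made, because the labels name no pairs of libraries between the groups. The value columns also do not carry the replicate numbers of the labels. With 2 libraries a group, spread is poorly known, and relative depth was lowest in pre B.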
